A study of Mus musculus with 6 samples.

Results

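The enzymes that hydroxylate and crosslink collagen were examined in BM MSCs of OVX mice after FMT, as the 10 genes *Lox*, *Loxl1*, *Loxl2*, *Loxl3*, *Loxl4*, *Plod1*, *Plod2*, *Plod3*, *P4ha1* and *P4ha2*. They were selected by gene symbol from a table of 56980 mouse genes, and all 10 were among the 15190 genes that passed the low-count filter. The recipients were female mice that had bilateral OVX at 8 weeks of age and antibiotic depletion of the gut microbiota, in both groups, followed by gavage of donor feces for 8 weeks. Donors were sedentary in the TranspCtrl group and exercised on a treadmill over 8 weeks in the TranspExer group. The study describes both kinds of donor as osteoporotic. Marrow of femurs and tibias was kept in culture for 7 days before RNA extraction, and the study's methods describe washes but no sorting of the cells. RNA-Seq was available for 3 samples per group. The strain of the mice was not given in the sources used here, and no source said whether the samples of a group came from separate mice, so the p-values measure the spread between these samples, which may be technical.

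Fibrillar collagen is modified in the endoplasmic reticulum before it is secreted. Prolyl 4-hydroxylase, a tetramer of alpha subunits (*P4ha1*, *P4ha2*) and the beta subunit P4HB, hydroxylates prolines and thereby stabilizes the triple helix, and the lysyl hydroxylases (*Plod1*, *Plod2*, *Plod3*) hydroxylate lysines of the same chains. Outside the cell, the copper-dependent lysyl oxidases (*Lox* and *Loxl1* to *Loxl4*) oxidize lysines and hydroxylysines to aldehydes, from which the covalent crosslinks of bone collagen form. The hydroxylation of telopeptide lysines by the *Plod2* product decides which kind of crosslink can form, and *Plod2*, *P4ha1*, *P4ha2* and *Lox* are known targets of hypoxia-inducible factors.

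Total counts were between 17647682 and 21319228 per sample. At these depths, 3 counts equalled 0.141 to 0.17 CPM (counts scaled to the library total), a floor for counting error only, and the 10 enzymes had between 128 and 71593 counts in a sample. TranspCtrl replicate 1 stood apart from the other TranspCtrl samples, with a score of 29.7 on the second principal component of log2 CPM against -22.7 and -19. Its counts differed from those of the other TranspCtrl samples by a mean chi-square per gene of 59.2 and 54, whereas every other pair within a group had 3.79 to 7.82, so no library was a duplicate of another. Values without this sample are given beside several of the results that it moved. Of 12 stromal marker genes, 11 passed the low-count filter in these cultures, with a summed level of 2544 to 2668 CPM in TranspCtrl and 2143 to 2158 CPM in TranspExer. The remaining marker, *Dpt*, was near 0.

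Hypoxia-inducible factors bind the letters ACGTG or GCGTG, the core of the hypoxia response element, and the stretches just upstream of the enzymes were searched for them. RefSeq windows (GRCm38.p6) were at hand for *P4ha1*, *P4ha2*, *Plod1*, *Plod3* and *Loxl4*. Windows of *P4ha1*, *P4ha2* and *Loxl4* are shown as those of enzymes that fell, and those of *Plod3* and *Plod1* for comparison. Each covers the 250 bases before the RefSeq start of the gene, 5′ to 3′ on the gene's strand, and capitals mark ACGTG or GCGTG on either strand (CACGT or CACGC where the match is on the opposite strand).
*P4ha1*, chr10:59323046-59323295, plus strand: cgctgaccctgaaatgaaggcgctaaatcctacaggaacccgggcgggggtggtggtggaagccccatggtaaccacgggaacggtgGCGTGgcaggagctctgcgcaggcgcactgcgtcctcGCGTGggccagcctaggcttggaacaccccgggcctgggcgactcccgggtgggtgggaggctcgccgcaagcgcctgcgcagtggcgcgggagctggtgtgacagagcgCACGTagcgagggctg
*P4ha2*, chr11:54100674-54100923, plus strand: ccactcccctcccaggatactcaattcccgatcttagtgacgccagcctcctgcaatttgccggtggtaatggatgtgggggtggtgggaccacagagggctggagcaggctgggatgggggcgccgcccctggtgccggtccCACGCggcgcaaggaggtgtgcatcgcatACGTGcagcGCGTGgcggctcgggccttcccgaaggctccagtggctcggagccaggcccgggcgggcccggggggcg
*Loxl4*, chr19:42612807-42613056, minus strand: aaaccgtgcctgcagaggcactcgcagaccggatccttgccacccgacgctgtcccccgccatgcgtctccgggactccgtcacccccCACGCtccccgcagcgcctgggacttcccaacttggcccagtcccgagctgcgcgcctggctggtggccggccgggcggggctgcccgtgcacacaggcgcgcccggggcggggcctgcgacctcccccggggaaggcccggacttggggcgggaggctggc
*Plod3*, chr5:136986769-136987018, plus strand: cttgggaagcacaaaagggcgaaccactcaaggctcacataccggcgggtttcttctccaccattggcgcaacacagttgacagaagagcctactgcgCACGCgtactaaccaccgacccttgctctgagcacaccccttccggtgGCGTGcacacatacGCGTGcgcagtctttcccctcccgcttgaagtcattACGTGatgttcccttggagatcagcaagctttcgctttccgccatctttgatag
*Plod1*, chr4:147936777-147937026, minus strand: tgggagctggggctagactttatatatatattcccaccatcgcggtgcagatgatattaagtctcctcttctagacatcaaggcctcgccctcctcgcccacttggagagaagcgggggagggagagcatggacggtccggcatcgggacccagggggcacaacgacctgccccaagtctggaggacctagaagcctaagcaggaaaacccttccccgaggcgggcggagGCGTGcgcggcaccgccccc

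The *P4ha1* and *P4ha2* windows each held 3 matches, the *Plod3* window 4, and those of *Plod1* and *Loxl4* 1 each. In the *P4ha2* window, ACGTG began 78 bases and GCGTG 69 bases before the start. The window lies inside the GENCODE bounds of the gene, which begin at base 54100095. At least 1 match occurred in 38.6% of the 32851 RefSeq windows of this length, and 3 or more in 6.6%. ACGTG is also part of the E-box CACGTG, and a match of 5 letters is a description of the sequence and not evidence of a binding site.

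TMM-scaled CPM were compared with edgeR's quasi-likelihood test, adjusted over all 15190 genes. Of the 10 enzymes, 6 were lower in TranspExer at an adjusted p-value under 0.05 (*Lox*, *Loxl2*, *Loxl4*, *Plod2*, *P4ha1* and *P4ha2*), 1 was higher (*Loxl3*) and 3 did not pass (*Loxl1*, *Plod1* and *Plod3*). Among all genes tested, 15.5% were lower and 16.6% higher by the same rule. *Plod2* and *P4ha2* also passed the 2-fold threshold that the study set for DEGs, which 5.28% of all genes passed in the lower direction and 3.5% in the higher. The median log2 fold change was -0.64 over the 10 enzymes and -0.02 over all genes. For 7 enzymes every TranspExer sample was below every TranspCtrl sample, for 1 every TranspExer sample was above, and for 2 the groups overlapped, and of all genes 25.1% were without overlap in the lower direction and 27.2% in the higher. In cultures of mixed cells, fewer cells of the type that makes these enzymes and less mRNA per cell cannot be told apart.

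**Figure D1:**
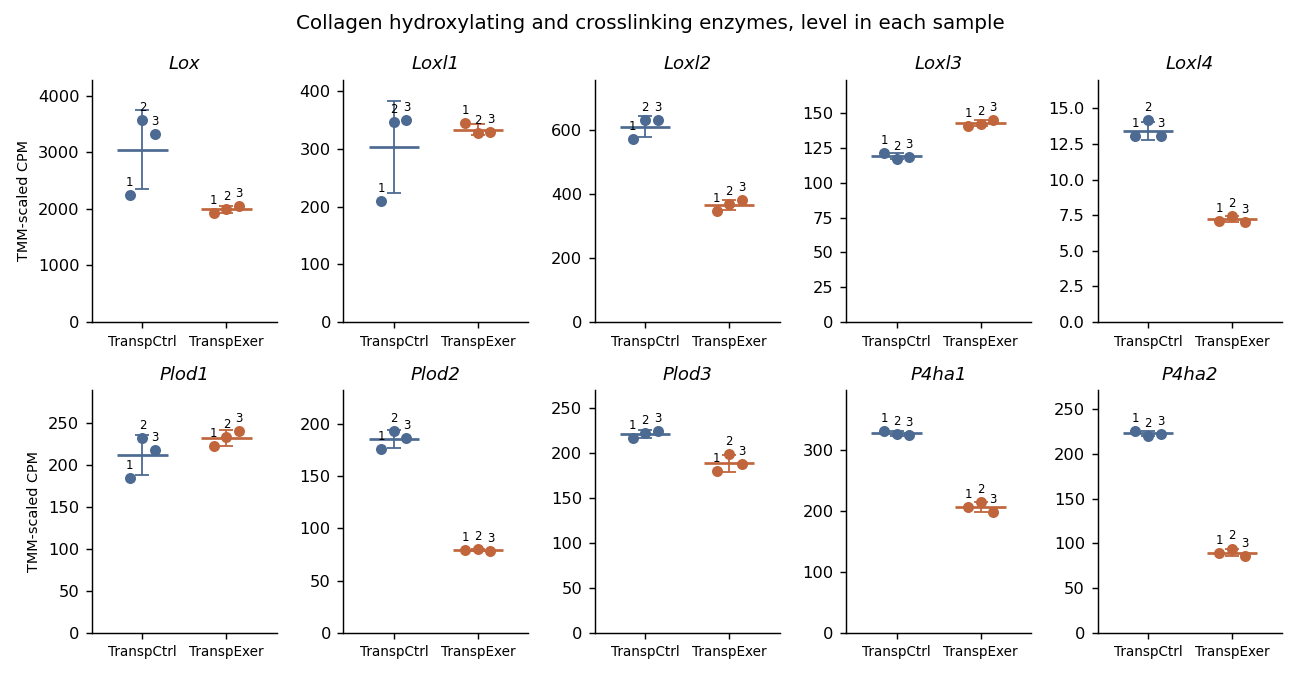
Level of each of the 10 enzymes in every sample, in TMM-scaled CPM on axes that start at 0; points are samples numbered by replicate, long bars are group means and error bars SD (n = 3). *P4ha2* and *Plod2* were separated most clearly, with TranspExer samples at 85.8 to 94.3 CPM and 78.7 to 80.4 CPM against 220 to 226 CPM and 176 to 193 CPM.

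*P4ha2* (ENSMUSG00000018906, chr11:54100095-54131665, plus strand), an alpha subunit that carries the catalytic site of prolyl 4-hydroxylase, had 226, 220 and 222 CPM in TranspCtrl replicates 1, 2 and 3. In TranspExer replicates 1, 2 and 3 it had 89.2, 94.3 and 85.8 CPM. All TranspExer samples lay far below all TranspCtrl samples. The mean went from 223 ± 2.77 CPM to 89.7 ± 4.27 CPM (SD, n = 3 each), 2.48-fold lower, with a log2 fold change of -1.31 (SE 0.07, edgeR adjusted p = 4.58e-05). It passed in all 15 alternative fits, with log2 fold changes from -1.40 to -1.29.

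*P4ha1* (ENSMUSG00000019916, chr10:59323296-59373304, plus strand) encodes the other alpha subunit examined. Its levels were 331, 325 and 324 CPM in the TranspCtrl samples and 206, 213 and 198 CPM in the TranspExer samples, again without overlap. This was a decrease from 326 ± 3.77 to 206 ± 7.63 CPM (SD, n = 3 each) and a log2 fold change of -0.67 (SE 0.07, edgeR adjusted p = 0.000566). When a fold change of 1.5 was tested within the model, the adjusted p-value was 0.399, and the other 14 alternatives kept the call. Within each sample, the ratio of *P4ha2* to *P4ha1* (counts per length) was 1.24, 1.23 and 1.25 in TranspCtrl and 0.786, 0.801 and 0.785 in TranspExer. The ratio needs no scaling between libraries, and it was 0.65 lower on the log2 scale in TranspExer (exact two-sided permutation p = 0.1, the smallest that 3 samples against 3 allow). Its level depends on the gene lengths used, but its log2 difference between groups does not. *P4hb*, which encodes the beta subunit and protein disulfide isomerase, had 1156 ± 112 and 1096 ± 13.7 CPM (SD, n = 3 each; log2 fold change -0.08, SE 0.10, edgeR adjusted p = 0.565), and it passed as lower only without TranspCtrl replicate 1 (log2 fold change -0.16, edgeR adjusted p = 0.0112). Per *P4hb*, *P4ha1* had a log2 difference of -0.59 and *P4ha2* one of -1.24, without overlap between groups in either case (exact permutation p = 0.1 for each).

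*Plod2* (ENSMUSG00000032374, chr9:92542223-92608428, plus strand), the lysyl hydroxylase of collagen telopeptides, was the lysyl hydroxylase that passed the test. TranspCtrl replicates 1, 2 and 3 had 176, 193 and 186 CPM, and TranspExer replicates 1, 2 and 3 had 78.8, 80.4 and 78.7 CPM. The groups were wide apart, and the TranspExer samples were within 2 CPM of each other. The level fell from 185 ± 8.69 to 79.3 ± 0.955 CPM (SD, n = 3 each), 2.33-fold, with a log2 fold change of -1.22 (SE 0.07, edgeR adjusted p = 4.96e-05), and in all 15 alternatives *Plod2* passed, with values from -1.31 to -1.19. An opposite-strand gene model, *Gm38391*, shares at most 346 exonic bases with *Plod2* but had a mean of 14.3 counts against 2642.

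*Plod1* (ENSMUSG00000019055, chr4:147909753-147936767, minus strand), which hydroxylates lysines of the triple helix, had 184, 231 and 217 CPM in TranspCtrl and 222, 233 and 240 CPM in TranspExer. The groups overlapped, and the log2 fold change was 0.13 (SE 0.10, edgeR adjusted p = 0.331), or 0.05 without TranspCtrl replicate 1. *Plod3* (ENSMUSG00000004846, chr5:136987019-136996648, plus strand), which also transfers sugars to hydroxylysine, had 216, 222 and 224 CPM in TranspCtrl and 179, 198 and 187 CPM in TranspExer. Its groups did not overlap, yet the difference missed the threshold narrowly, with a log2 fold change of -0.23 (SE 0.08, edgeR adjusted p = 0.0501). *Plod3* passed in 6 of 15 alternatives, among them the fit without TranspCtrl replicate 1 (edgeR adjusted p = 0.00311). It shares at most 604 exonic bases (a sum over exon records) with *Znhit1* on the opposite strand, whose mean count of 463 compares with 4027 for *Plod3*. Whether strand was used in counting was not given in the sources used here.

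The balance within the lysyl hydroxylase family differed between the groups. Within each sample, the ratio of *Plod2* to *Plod1* per length was 0.845, 0.74 and 0.759 in TranspCtrl and 0.314, 0.306 and 0.29 in TranspExer. This was a log2 difference of -1.36 without overlap (exact permutation p = 0.1). *Plod2* made up 27.7 ± 0.434% of the summed lysyl hydroxylase mRNA per length in TranspCtrl and 14.4 ± 0.418% in TranspExer (SD, n = 3 each). The share of *Plod1* was 35.5 ± 1.98% and 47.5 ± 1.01%, and that of *Plod3* 36.8 ± 1.63% and 38.1 ± 0.972%, the last with overlap between groups. These shares depend on the gene lengths used.

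**Figure D2:**
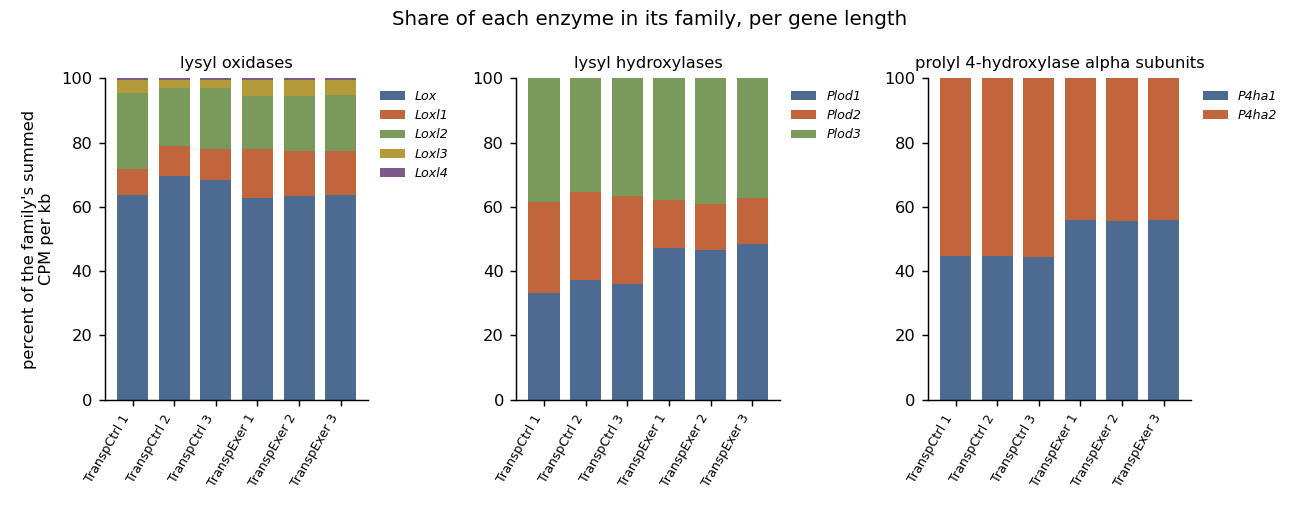
Share of each gene in the summed CPM per kilobase of its family, in percent, for each of the 6 samples; families are the lysyl oxidases, the lysyl hydroxylases and the prolyl 4-hydroxylase alpha subunits. The *Plod2* share was 27.3% to 28.1% in TranspCtrl and 14.1% to 14.9% in TranspExer, and the *P4ha2* share 55.2% to 55.5% against 44% to 44.5%. Shares used the deposited gene lengths, and on union exon lengths *P4ha2* lay below *P4ha1* in both groups (35.7 and 79.3 CPM per kb in TranspCtrl).

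*Lox* (ENSMUSG00000024529), the most abundant of the enzymes, had 2246, 3567 and 3329 CPM in TranspCtrl and 1919, 2000 and 2052 CPM in TranspExer. All TranspExer samples were below all TranspCtrl samples, with TranspCtrl replicate 1 close to the TranspExer samples. The log2 fold change was -0.61 (SE 0.17, edgeR adjusted p = 0.0252), from means of 3047 ± 704 and 1990 ± 67.4 CPM (SD, n = 3 each). Without TranspCtrl replicate 1 the log2 fold change was -0.79 (edgeR adjusted p = 4.38e-08), whereas leaving out TranspCtrl replicate 2 or 3, or TranspExer replicate 1, 2 or 3, gave edgeR adjusted p-values of 0.0656, 0.0739, 0.0845, 0.0787 and 0.0716. The direction was the same each time, with log2 fold changes from -0.79 to -0.48.

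*Loxl2* (ENSMUSG00000034205, chr14:69609068-69695834, plus strand), an oxidase with scavenger receptor domains that acts on collagen IV among other substrates, had 570, 629 and 630 CPM in TranspCtrl. The TranspExer samples had 347, 367 and 381 CPM, all below the TranspCtrl samples. The log2 fold change was -0.74 (SE 0.08, edgeR adjusted p = 0.000651) and passed whichever sample was left out. *Loxl4* (ENSMUSG00000025185, chr19:42593982-42612813, minus strand) was the least abundant of the enzymes, with 13, 14.2 and 13.1 CPM in TranspCtrl and 7.11, 7.44 and 7.05 CPM in TranspExer. Its groups did not overlap either, and its log2 fold change of -0.90 (SE 0.10, edgeR adjusted p = 0.000722) passed in all 15 alternatives.

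*Loxl3* (ENSMUSG00000000693, chr6:83034173-83052562, plus strand) was the enzyme that rose. It had 121, 117 and 119 CPM in the TranspCtrl samples and 141, 142 and 145 CPM in the TranspExer samples, all above the controls. The change was small, with a log2 fold change of 0.26 (SE 0.07, edgeR adjusted p = 0.0224), and it passed in 5 of 15 alternatives. Leaving out TranspCtrl replicate 2 or 3, or TranspExer replicate 1, 2 or 3, gave edgeR adjusted p-values of 0.0634, 0.073, 0.073, 0.0989 and 0.0917, with log2 fold changes from 0.24 to 0.26. *Loxl3* shares at most 1885 exonic bases with *Htra2* on the opposite strand. A base can enter this sum more than once, because it was taken over all exon records of *Htra2*. The mean count of *Htra2*, 710, compares with 2565 for *Loxl3*. Part of the *Loxl3* counts may belong to *Htra2* if strand was not used in counting. *Loxl1* (ENSMUSG00000032334, chr9:58287738-58313186, minus strand), known for crosslinking elastin, had 210, 347 and 349 CPM in TranspCtrl and 344, 326 and 329 CPM in TranspExer. Only TranspCtrl replicate 1 was low, and the log2 fold change of 0.14 (SE 0.18, edgeR adjusted p = 0.573) turned to -0.06 without that sample (edgeR adjusted p = 0.322).

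Relative to *Lox* in the same sample, *Loxl1* was higher in TranspExer, with per-length ratios of 0.127, 0.132 and 0.142 against 0.243, 0.221 and 0.217 (exact permutation p = 0.1). *Loxl3* relative to *Lox* was 0.85 higher on the log2 scale and *Loxl4* relative to *Lox* had a log2 difference of -0.31, both without overlap (exact permutation p = 0.1 for each). *Loxl2* to *Lox* overlapped between groups (log2 difference -0.15, exact permutation p = 0.6). Without TranspCtrl replicate 1, the log2 differences of *Loxl4* and *Loxl2* relative to *Lox* were -0.13 and 0.0063. Of 9 within-sample ratios computed, 6 were lower in every TranspExer sample, 2 higher and 1 overlapped, and no p-value could be under 0.1. The pairs were chosen after the data were seen, and no share over all pairs of genes was computed. This count therefore adds nothing to the tests of the single genes. The lysyl oxidase family as a whole had 789, 1144 and 1092 CPM per kb in TranspCtrl and 685, 705 and 722 CPM per kb in TranspExer, and the share of *Loxl1* in it was 9 ± 0.827% and 14.4 ± 0.764% (SD, n = 3 each).

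By level per length, using the gene lengths of the deposited table, the order in TranspCtrl was *Lox* (682 ± 158 CPM per kb), *Loxl2* (200 ± 11.1), *P4ha2* (100 ± 1.24), *Loxl1* (91.7 ± 24.2), *P4ha1* (80.7 ± 0.933), *Plod3* (67.3 ± 1.32), *Plod1* (65.1 ± 7.40), *Plod2* (50.6 ± 2.37), *Loxl3* (29.1 ± 0.50) and *Loxl4* (5.13 ± 0.247; CPM per kb, SD, n = 3 throughout). *Loxl1* overlapped with both of its neighbours, and *Plod3* with *Plod1*. In TranspExer no neighbours overlapped, and the order was *Lox* (445 ± 15.1 CPM per kb), *Loxl2* (120 ± 5.58), *Loxl1* (101 ± 2.91), *Plod1* (71.4 ± 2.81), *Plod3* (57.4 ± 2.91), *P4ha1* (50.9 ± 1.89), *P4ha2* (40.2 ± 1.91), *Loxl3* (34.8 ± 0.483), *Plod2* (21.7 ± 0.261) and *Loxl4* (2.75 ± 0.0792). *Plod2* was thus above *Loxl3* in TranspCtrl and below it in TranspExer. The order depends on the length used. The table gives *P4ha2* 2230 bases, whereas the union of its GENCODE exons is 6239 bases, and on that length *P4ha2* lay below *P4ha1* in TranspCtrl also (35.7 and 79.3 CPM per kb).

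The next comparison set each enzyme against the mRNA of its main substrate in bone, type I collagen. *Col1a1* (ENSMUSG00000001506) had 4563, 9951 and 9613 CPM in TranspCtrl and 6794, 7164 and 7708 CPM in TranspExer. The groups overlapped, with TranspCtrl replicate 1 the lowest of all samples, and the log2 fold change was -0.16 (SE 0.26, edgeR adjusted p = 0.674), or -0.44 without that sample (edgeR adjusted p = 1.53e-05). *Col1a2* (ENSMUSG00000029661) had 5132, 7350 and 7029 CPM in TranspCtrl and 4071, 4297 and 4383 CPM in TranspExer, without overlap. Its log2 fold change was -0.61 (SE 0.14, edgeR adjusted p = 0.0148), with adjusted p-values of 0.0596 and 0.0546 when TranspExer replicate 1 or 2 was left out. The ratio of *Col1a1* to *Col1a2* counts, 0.889, 1.35 and 1.37 in TranspCtrl and 1.67, 1.67 and 1.76 in TranspExer, also differed without overlap. Their sum, the denominator used here, was 9695, 17301 and 16642 CPM in TranspCtrl and 10865, 11461 and 12091 CPM in TranspExer.

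Per 1000 counts of *Col1a1* and *Col1a2*, *P4ha2* and *Plod2* were lower at the adjusted p-value threshold, no enzyme was higher, and 8 did not pass. Of all genes, 2.36% were lower and 11% higher on this scale, and the median log2 fold change was -0.36 over the enzymes and 0.23 over all genes. All genes share the error of the denominator, so calls on this scale are not independent of each other. In simulated counts, the share of false calls on this scale exceeded the threshold of 0.05. *P4ha2* had 23.3, 12.7 and 13.4 counts per 1000 collagen counts in TranspCtrl and 8.21, 8.23 and 7.10 in TranspExer. *Plod2* had 18.2, 11.2 and 11.2 in TranspCtrl and 7.26, 7.02 and 6.51 in TranspExer. Both were without overlap, and TranspCtrl replicate 1 was the highest sample for each. The log2 fold changes were -1.07 (SE 0.25, edgeR adjusted p = 0.0215) and -0.96 (SE 0.23, edgeR adjusted p = 0.0224), and the exact permutation p was 0.1 for each.

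These calls depended on single samples in either direction. Leaving out TranspExer replicate 1, 2 or 3 raised the edgeR adjusted p-value of *P4ha2* to 0.108, 0.0952 and 0.118 and that of *Plod2* to 0.117, 0.117 and 0.128. The log2 fold changes in those fits were -1.104, -1.105 and -1.003 for *P4ha2* and -0.997, -0.972 and -0.920 for *Plod2*, close to those of all samples, and 0.943%, 1.08% and 0.983% of all genes were lower. Without TranspCtrl replicate 1, 5 enzymes were lower (*Lox*, *Loxl2*, *Loxl4*, *Plod2* and *P4ha2*) and 4 higher (*Loxl1*, *Loxl3*, *Plod1* and *Plod3*) per collagen count, where 4.38% of all genes were lower and 68.5% higher. In that fit *P4ha2* and *Plod2* had log2 fold changes of -0.74 (edgeR adjusted p = 1.1e-05) and -0.69 (edgeR adjusted p = 6.33e-06), and the median of all genes was 0.57. Also in that fit, *P4ha1* had a log2 fold change of -0.09 (edgeR adjusted p = 0.304).

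The remaining 8 enzymes did not pass relative to type I collagen. *P4ha1* had 34.1, 18.8 and 19.4 counts per 1000 collagen counts in TranspCtrl and 18.9, 18.6 and 16.4 in TranspExer, so its groups overlapped on this scale (log2 fold change -0.42, SE 0.25, edgeR adjusted p = 0.315). *Loxl1* had 21.7, 20.1 and 21 in TranspCtrl and 31.7, 28.5 and 27.2 in TranspExer. It was above the controls in every TranspExer sample, but its log2 fold change of 0.48 did not pass (SE 0.17, edgeR adjusted p = 0.101, exact permutation p = 0.1). *Plod1* had 19.0, 13.4 and 13.1 in TranspCtrl and 20.4, 20.3 and 19.9 in TranspExer, likewise without overlap and without passing (log2 fold change 0.41, SE 0.20, edgeR adjusted p = 0.222). *Lox* (-0.29), *Loxl2* (-0.48) and *Loxl4* (-0.64) were lower in every TranspExer sample without passing, and *Loxl3* (0.50) and *Plod3* (0.02) overlapped (edgeR adjusted p from 0.19 to 0.971). Without TranspCtrl replicate 1, *Loxl2* had a log2 fold change of -0.22, *Loxl4* one of -0.35, *Loxl3* one of 0.84, *Plod1* one of 0.61 and *Plod3* one of 0.32 (edgeR adjusted p from 1.84e-06 to 0.0253). With all 6 samples, 5 enzymes were lower without overlap and 2 higher, where 6.39% and 27.2% of all genes were. With *Col1a2* alone as the denominator, *Loxl1*, *Loxl3* and *Plod1* passed as higher (log2 fold changes 0.77, 0.84 and 0.73, with a median of 0.56 over all genes, of which 50.3% were higher), and with *Col1a1* alone they did not (0.24, 0.23 and 0.16, with 1.72% of all genes higher). *P4ha2* and *Plod2* passed as lower with either chain alone.

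**Figure D3:**
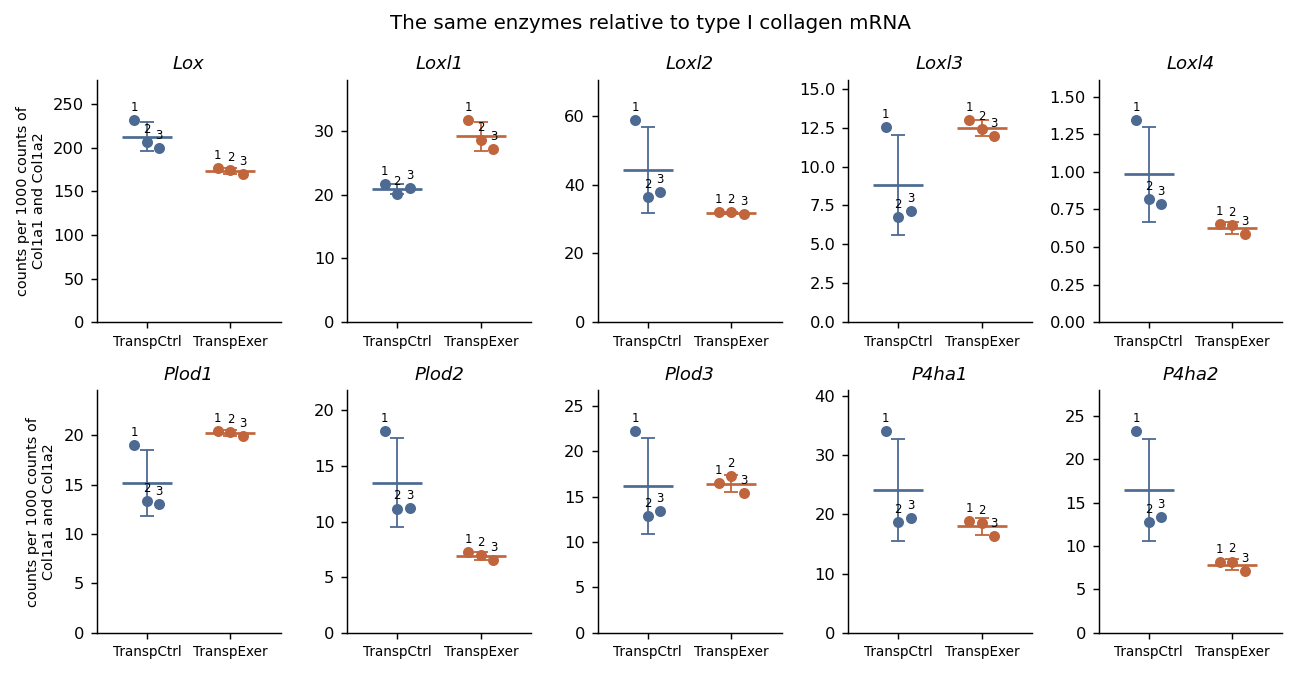
Counts of each enzyme per 1000 counts of *Col1a1* and *Col1a2* in every sample, on axes that start at 0; points are samples numbered by replicate, long bars are means and error bars SD (n = 3). TranspCtrl replicate 1 was the highest TranspCtrl sample in all 10 panels, and only *P4ha2* and *Plod2* passed the edgeR test on this scale.

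**Figure D4:**
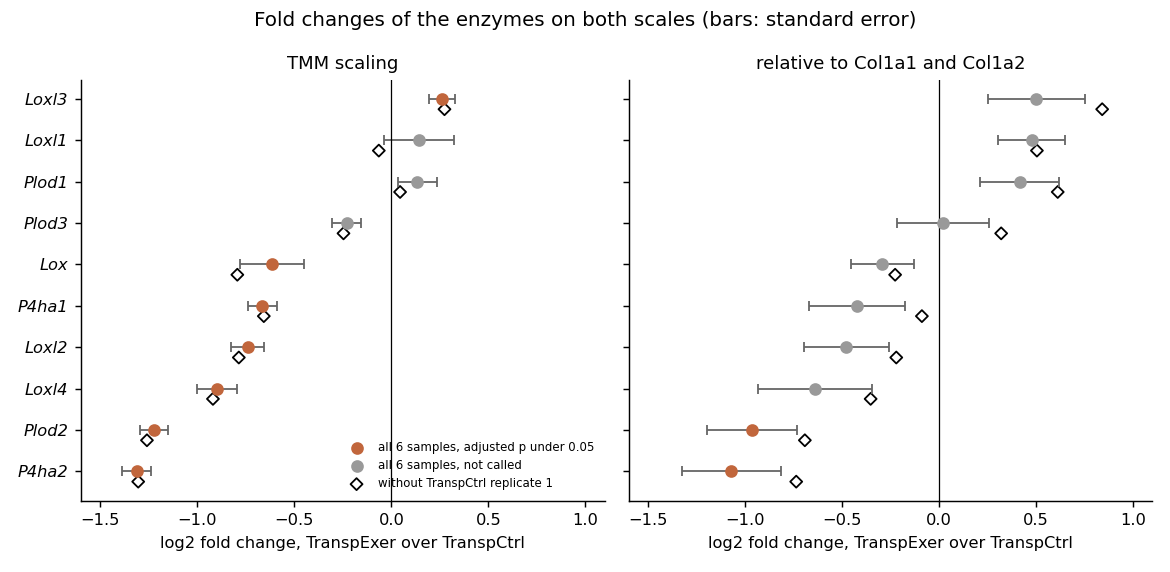
Log2 fold changes of the enzymes, TranspExer over TranspCtrl, with TMM scaling (left) and relative to *Col1a1* and *Col1a2* (right); circles with SE bars are from all 6 samples, orange where the edgeR adjusted p-value was under 0.05, and diamonds are from the fit without TranspCtrl replicate 1. *P4ha2* and *Plod2* were the lowest on both scales. Without that sample *Lox* and *Loxl1* moved more with TMM scaling, and *P4ha2*, *Plod2*, *P4ha1*, *Loxl2*, *Loxl3*, *Loxl4*, *Plod1* and *Plod3* more relative to collagen.

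Genes that work with these enzymes were read from the same edgeR fit, in which 15.5% of all genes were lower and 16.6% higher. Over all genes, leaving out single samples moved these shares to between 8.48% and 19.6% lower and between 8.42% and 22.1% higher. Of 11 fibrillar collagen chains, 6 were lower, 2 higher and 3 did not pass, with a median log2 fold change of -0.61. The higher count was 4 without TranspCtrl replicate 1 and 1 without TranspExer replicate 3, where 22.1% and 8.53% of all genes were higher. *Col11a1* went from 141 ± 5.45 to 38.4 ± 2.03 CPM (SD, n = 3 each; log2 fold change -1.88, edgeR adjusted p = 1.68e-05). *Col3a1* (-1.28, edgeR adjusted p = 8.1e-05) and *Col5a2* (-1.20, edgeR adjusted p = 8.52e-05), chains of fibrils that accompany type I collagen, were also lower. *Col24a1*, a low-count chain with at most 71 counts and none in TranspExer replicate 2, had a fitted log2 fold change of -3.03 (edgeR adjusted p = 0.00535).

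Of 20 other collagen-modifying enzymes and chaperones, 19 were tested, with a median log2 fold change of -0.33. Of these, 11 were lower and 2 higher (*P3h2* and *Tmem38b*), where 15.5% and 16.6% of all genes were, and 6 did not pass. None was past the 2-fold threshold, and *P3h2* did not pass without TranspCtrl replicate 2 or TranspExer replicate 2 or 3 (edgeR adjusted p up to 0.133). *Serpinh1*, which encodes the collagen chaperone HSP47 and was the most abundant, had 1806 ± 204 and 1432 ± 30.9 CPM (SD, n = 3 each; log2 fold change -0.33, edgeR adjusted p = 0.0416). It passed in only 1 of the 6 fits that left out a sample, the one without TranspCtrl replicate 1 (edgeR adjusted p = 5.91e-06, against at most 0.127 in the others), with log2 fold changes from -0.43 to -0.27 over the 6 fits. *P4ha3*, the third alpha subunit of prolyl 4-hydroxylase, had 30.7 ± 2.66 and 16.4 ± 0.655 CPM (SD, n = 3 each), a log2 fold change of -0.90 (SE 0.10, edgeR adjusted p = 0.000486), so that all 3 alpha subunits were lower while *P4hb* did not pass.

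Of 19 genes for procollagen processing and partners of lysyl oxidase, 18 were tested, and 7 were lower, 3 higher and 8 did not pass (median log2 fold change -0.20), and without TranspCtrl replicate 1, 11 were lower, where 19.6% of all genes were. The 3 higher genes are a share near that of all genes. *Postn*, the gene of periostin, which promotes collagen crosslinking, fell from 881 ± 99.2 to 254 ± 14.6 CPM (SD, n = 3 each; log2 fold change -1.79, edgeR adjusted p = 4.66e-05). *Pcolce*, the enhancer of procollagen C-proteinase, fell by 1.17 on the log2 scale (edgeR adjusted p = 6.5e-05), and *Fmod*, a collagen-binding proteoglycan that modulates lysyl oxidase action, by 1.86 (edgeR adjusted p = 0.000372). *Tll1*, a procollagen C-proteinase of the BMP1 family, was higher (1.85, edgeR adjusted p = 0.006) at 0.723 ± 0.302 and 2.63 ± 0.689 CPM (SD, n = 3 each). Over these 3 lists together, 24 genes were lower and 7 higher, where 15.5% and 16.6% of all genes were. With single samples left out the counts were 19 to 32 and 4 to 10, the 4 being without TranspExer replicate 3. In those fits 8.48% to 19.6% of all genes were lower and 8.42% to 22.1% higher.

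Of 18 hypoxia response genes, 14 were lower, 1 was higher (*Adm*) and 3 did not pass, against 15.5% lower and 16.6% higher of all genes, with a median log2 fold change of -0.45. Without TranspExer replicate 2 or 3, 9 were lower, where 8.48% and 8.66% of all genes were. *Bnip3*, a mitophagy receptor, had 153 ± 7.83 and 55.7 ± 3.85 CPM (SD, n = 3 each; log2 fold change -1.46, edgeR adjusted p = 4.66e-05). *Higd1a* had a log2 fold change of -1.03 (edgeR adjusted p = 0.000515) and *Ankrd37*, at low levels, one of -1.84 (edgeR adjusted p = 0.00437). No oxygen level was measured, and the part of oxygen supply in the enzymes' levels was not tested.

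**Figure D5:**
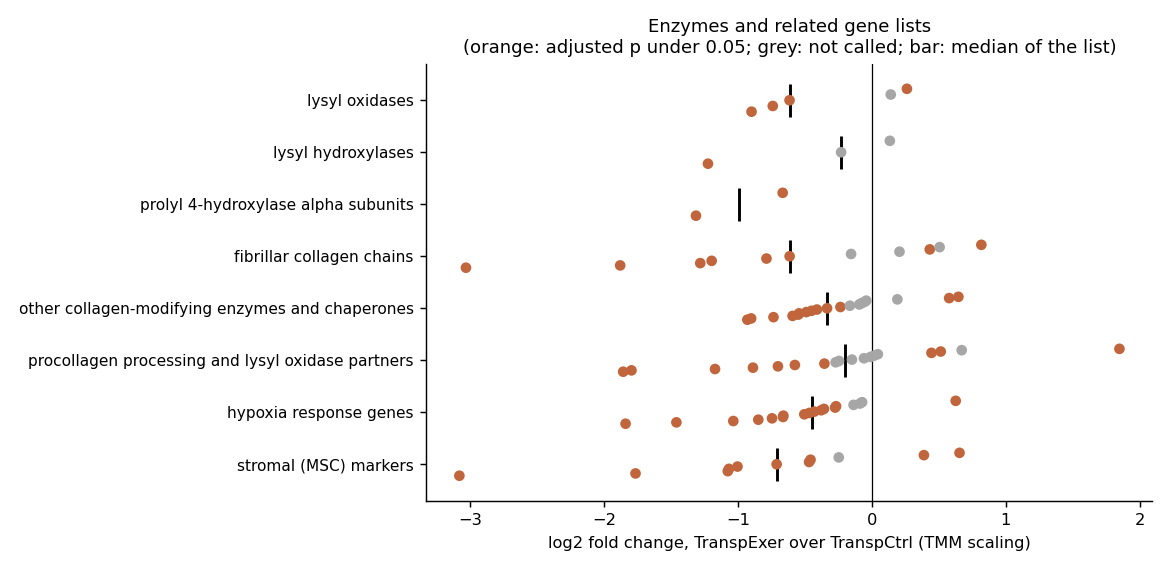
Log2 fold changes (TMM scaling, TranspExer over TranspCtrl) of the 3 enzyme families and 5 related gene lists; each point is a gene, orange where the edgeR adjusted p-value was under 0.05 and grey otherwise, and bars are list medians. Medians lay below 0 in each list, from -0.20 for procollagen processing to -0.99 for the prolyl 4-hydroxylase alpha subunits.

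Markers of the cell types that marrow cultures can hold were read from the same fit, in which 16.6% of all genes were higher and 15.5% lower. Of the stromal markers, 8 were lower, 2 higher and 1 did not pass (median log2 fold change -0.71). All 10 endothelial markers were higher, with a summed level of 217 to 271 CPM in TranspCtrl and 726 to 801 CPM in TranspExer. Of 10 B and plasma cell markers, 9 were lower and 1 did not pass, with sums of 5217 to 8664 and 1313 to 1433 CPM. Of 12 macrophage and monocyte markers, 3 were lower and 2 higher (sums 9564 to 14663 and 7808 to 8455 CPM), shares near those of all genes. That sum was carried by *Lyz2*, 1 of the lower genes (means of 6412 and 2910 CPM), and *Cd68* and *Mertk* were the higher genes. Of 10 neutrophil markers 1 was lower and 3 higher (sums 3239 to 4320 and 5537 to 5758 CPM). The higher genes were *Ngp*, *Mpo* (means of 216 and 1197 CPM) and *Elane*, the lower was *Ly6g*, and 6 did not pass. Of 8 osteoblast markers, 5 were tested and 4 of them were lower (sums 156 to 205 and 95.9 to 102 CPM), and of 6 adipocyte markers, 3 were tested and 2 were higher (sums 53.7 to 107 and 114 to 134 CPM), with *Lep* at 0 in every sample. Without TranspCtrl replicate 1, the higher counts were 5 for macrophage and monocyte, 6 for neutrophil and 1 for osteoblast markers, where 22.1% of all genes were higher. The higher adipocyte count was 1 without any one of the other samples, and the lower neutrophil count then was 0. The higher stromal count was 1 without TranspCtrl replicate 3 or TranspExer replicate 2 or 3. The part of these cell types in the enzymes' levels was not tested. With the summed stromal markers as the denominator in place of collagen, *Loxl2*, *Loxl4*, *Plod2*, *P4ha1* and *P4ha2* were lower and *Loxl3* and *Plod1* higher at the edgeR threshold, with log2 fold changes of -1.03 for *P4ha2* and -0.94 for *Plod2* and a median of 0.26 over all genes. By that denominator 7.45% of all genes were lower and 41.9% higher. The sum is carried by *Cxcl12* (means of 1396 and 1016 CPM) and includes *Vcam1*, which was higher (281 and 442 CPM), and the median stromal marker had a log2 fold change of -0.71, against -0.74 for *Loxl2* and -0.67 for *P4ha1*.

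Among 9665 tested genes with a mean of at least 10 CPM, those whose log2 CPM followed *Plod2* most closely over the 6 samples were *Pdgfra* (Pearson r = 0.9998), which encodes a PDGF receptor of stromal cells, *Sfrp1* (r = 0.9996), a secreted WNT modulator, and *Thbs2* (r = 0.9993), a matricellular thrombospondin. For *P4ha2* they were *Epdr1*, *Igsf10* and *Dkk3* (r = 0.9995, 0.999 and 0.9988), and for *P4ha1* *Ibsp*, *Serpinf1* and *Igsf10* (r = 0.9992, 0.9986 and 0.9985). The 6 samples form separate groups, so such values describe mainly the difference between groups, and 104 genes had r above 0.99 with *Plod2*, 104 with *P4ha2* and 82 with *P4ha1*.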

How the data were processed

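RNA-Seq of BM MSCs was analysed in 3 TranspCtrl and 3 TranspExer samples, grouped by the sample labels. The authors deposited expected counts per gene (estimated counts, not normalized, 10.1% to 12.2% of them not whole) and 1 gene length per gene, for 56980 genes. The submitters' processing notes name the build mm10. The aligner, the counting tool, the annotation and the use of strand were not given in the sources used here. Library kits differ between sources, a stranded mRNA kit in the labels and a TruSeq kit in the methods. Reads of overlapping genes could have been split in ways that the counts do not show.

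Counts were rounded. Genes were tested in R 4.3.3 with edgeR 4.0.16 (filterByExpr, TMM, quasi-likelihood test, condition as the only term) and Benjamini-Hochberg adjustment over 15190 genes. Each SE was computed as the size of the log2 fold change over the root of its F value. For the comparison with type I collagen, the library size in the same fit was the summed count of *Col1a1* and *Col1a2*. Single values were compared by exact two-sided permutation over 20 regroupings, for which the smallest p is 0.1. Levels per length used the deposited lengths. Alternatives included DESeq2 1.42.0, other scalings, filters and denominators, and each sample left out, and the within-sample ratios were added after the data were seen. The tests were checked in a single run on simulated counts. There the share of false calls exceeded the threshold of 0.05 for the fit relative to collagen and for DESeq2. It stayed below 0.05 for edgeR with TMM scaling. The simulation held no sample that stood apart as TranspCtrl replicate 1 does, and a smaller share of changed genes than was called in these data. Coordinates came from GENCODE M21 (GRCm38, the same assembly as mm10).

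The 10 enzymes and all gene lists were chosen with earlier results of these data known. The genes named were the 10 enzymes, *Col1a1* and *Col1a2*, up to 4 genes past both thresholds by adjusted p in each related list or else its most abundant gene, and for the 3 enzymes with the smallest adjusted p the 3 genes most alike. *P4ha3*, *P4hb*, *P3h2*, *Tmem38b*, *Adm*, *Dpt*, *Lep*, *Cxcl12* and *Vcam1*, and the genes overlapping an enzyme, were named outside this rule, after their values were seen. The same holds for *Alpl*, *Sp7*, *Fabp4*, *Plin1*, *Lyz2*, *Cd68*, *Mertk*, *Ngp*, *Mpo*, *Elane* and *Ly6g*. *Aldoa* has 2 identifiers in the table, and the one with more counts was used. Replicate numbers in the labels are not said to pair samples.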

Additional observations from a re-analysis of the deposited data

How the results depend on the processing

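*Plod2* and *P4ha2* were past both thresholds in all 15 alternatives of the fit over all genes. Lower calls among the enzymes numbered 6, and 3 (*Loxl4*, *Plod2* and *P4ha2*) when a fold change of 1.5 was tested in the model. They numbered 7 with DESeq2, upper-quartile factors, library size only, immunoglobulin genes left out and the 1 CPM filter, and 5 to 7 with single samples left out (5 in each fit but the one without TranspCtrl replicate 1). Higher calls numbered 1 (*Loxl3*), and 0 with upper-quartile factors, library size only, no low-count filter, the replicate block and the test of a fold change of 1.5, and 0 to 1 with single samples left out. With the replicate number as a block, lower calls stayed at 6 and the adjusted p-value of *Loxl3* was 0.051. Deviations of equally numbered samples correlated at 0.025, -0.00174 and 0.0419, so the numbers gave no sign of pairing. Relative to collagen, higher calls numbered 0, and 3 with *Col1a2* alone, 3 with all fibrillar chains, 2 with stromal markers and 0 to 4 with single samples left out. Lower calls numbered 2, and 5 with stromal markers and 0 to 5 with single samples left out. Some list counts moved with library size only: adipocyte markers had 1 higher call in place of 2, neutrophil markers 2 lower in place of 1 (0 with DESeq2 and the replicate block), and other collagen-modifying enzymes 1 higher in place of 2. The 3 collagen-related lists had 7 higher calls, and 4 to 10 with single samples left out. Reversed values, none of them past the threshold, were *Col1a1* (0.0292 without TranspCtrl replicate 2; range -0.44 to 0.0292), *Loxl1* (range -0.0644 to 0.26), *Lox* relative to *Col1a2* alone (0.00878) and *Plod3* relative to *Col1a1* alone (-0.25). With single samples left out, *Plod3* relative to *Col1a1* and *Col1a2* together had values from -0.12 to 0.32, of which the 0.32 without TranspCtrl replicate 1 passed as higher (edgeR adjusted p = 0.00168) and those below 0 did not pass. Over all genes, calls were 2523 higher and 2361 lower, but 2013 and 2963 with library size only, 2052 and 2901 with upper-quartile factors, 420 and 562 with the test of a fold change of 1.5, and 1315 to 3419 and 1325 to 3040 with single samples left out. Relative to collagen they were 1673 and 359, but 262 and 390 with *Col1a1* alone, 7635 and 449 with *Col1a2* alone, 5877 and 446 with fibrillar chains, 6371 and 1132 with stromal markers, 564 lower with the replicate block, 592 lower with no low-count filter, and 349 to 10607 and 147 to 678 with single samples left out. A fit without a sample leaves 2 samples in its group, which are assumed to vary like the others. The causes of these moves were not tested. Each enzyme had at least 128 counts in every sample.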
